A study of Homo sapiens with 2 samples.

Results

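The BCL2 family decides whether a cell keeps or loses its mitochondrial outer membrane, and 10 of its genes were examined for called transcription starts in wild-type HUDEP-2 cells. The genes were taken by name, with earlier results of these data known. The list holds the pro-survival genes BCL2, BCL2L1 and MCL1, the effectors BAX and BAK1, and the BH3-only genes BCL2L11, BBC3, BAD, BID and PMAIP1. They are 10 of 19821 protein-coding genes on chromosomes 1 to 22 and X. For each gene, every call within its outer coordinates in hg38 and 20 kb on each side was collected. Of the 26332 calls on these chromosomes, 44 lay in the windows of the 10 genes.

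PRO-cap reads the 5' ends of RNA made in a nuclear run-on, so that a call marks a place where transcription started. HUDEP-2 is an immortalised line of human erythroid progenitors, and the labels describe it as wild-type, with 2 biological replicates and no treatment. The line was made with papillomavirus genes E6 and E7, and E6 is known for the loss of p53, an activator of BAX, BBC3 and PMAIP1. The state of p53 in these cells and the effect of E6 on these genes were not tested. The deposited call set holds 1 yes or no per position for the cell line, with no read count and nothing that separates the replicates. The depth behind each call and the spread between replicates are therefore unknown. A gene without a call can still be transcribed below a calling threshold that is not given in the sources used here. All 9 erythroid markers that were checked, GATA1 and KLF1 among them, had a called start, against 1 of 13 markers of other cell types, the integrin gene ITGA2B.

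In healthy cells the pro-survival proteins hold the effectors BAX and BAK1 in check. BH3-only proteins report stress by binding the pro-survival proteins or by activating the effectors, which then open the membrane and release cytochrome c. In erythroid cells erythropoietin signals through JAK2 and STAT5 to BCL2L1, whose product BCL-XL is known as the main survival protein of late erythroblasts, while MCL1 is needed earlier.

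A gene was counted as started when a call on its own strand (a sense call) lay within 500 bp of its outer 5' end. Strand came from a RefSeq promoter table that lists 9 of the 10 genes. MCL1 is not among them, and an inward call at either end was accepted for it, as for other genes without a listed strand. By this rule 8 of 10 genes had a called start, and 40.9% of all protein-coding genes did (8112 of 19821, 95% Wilson interval 40.2 to 41.6, which covers counting error only). Pro-survival genes had 2 of 3, the effectors 2 of 2 and the BH3-only genes 4 of 5, so that both sides of the family were represented and both had 1 gene without a start. BCL2 and BBC3 were those genes. Both had a sense call beyond the 500 bp window, BCL2 720 bp outside the gene and BBC3 1661 bp inside. That of BBC3 had an opposite call 252 bp away, in divergent arrangement. The count thus refers to outer 5' ends, and starts further off are not in it. Counting any call inside the gene or within 500 bp of it, all 10 genes had 1 or more, against 52.6% of protein-coding genes. With the 20 kb flanks included, 63.5% of protein-coding genes had a call. Since the members were chosen with earlier results known, the differences from all protein-coding genes are descriptions. No test was made of pro-survival against pro-death genes, since 3 and 7 chosen genes are not replicates of a condition.

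**Figure D1:**
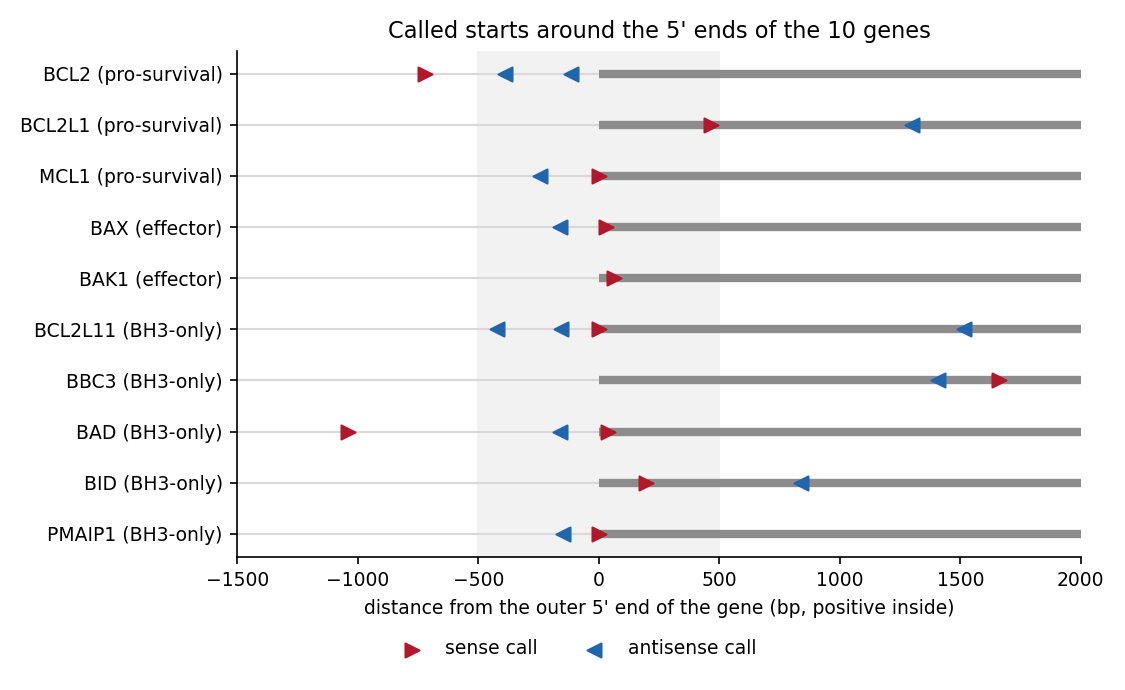
Called starts around the outer 5' end of each gene (horizontal axis, distance in bp, positive inside). Each row is 1 gene, the grey bar is the gene, red arrowheads are sense calls, blue arrowheads are antisense calls and the shaded band is the 500 bp window. The 8 called starts lie in the band, while BCL2 has a sense call 720 bp upstream and BBC3 one 1661 bp inside.

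The sequence at the called base is shown for the 5 genes whose call falls in a listed promoter window, because these letters show what the calls sit on. Sequences are from RefSeq (GRCh38.p14, the same build as hg38), 5' to 3' on the gene's strand, with 90 bases before the called base. The 3 capitals are the base before the call, the called base and the base after it.
BCL2L11, chr2:111120823-111120933, plus strand: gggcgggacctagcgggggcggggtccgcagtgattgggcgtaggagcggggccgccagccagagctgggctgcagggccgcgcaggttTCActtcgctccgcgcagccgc
PMAIP1, chr18:59899905-59900015, plus strand: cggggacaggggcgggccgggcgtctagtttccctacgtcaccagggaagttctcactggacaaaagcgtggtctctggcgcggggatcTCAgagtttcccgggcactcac
BAD, chr11:64284646-64284756, minus strand: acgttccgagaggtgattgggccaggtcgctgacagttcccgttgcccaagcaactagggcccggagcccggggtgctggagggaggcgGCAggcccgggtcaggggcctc
BID, chr22:17774449-17774559, minus strand: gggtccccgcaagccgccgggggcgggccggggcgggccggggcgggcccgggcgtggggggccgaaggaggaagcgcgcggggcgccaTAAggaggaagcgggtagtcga
BAX, chr19:48954816-48954924, plus strand: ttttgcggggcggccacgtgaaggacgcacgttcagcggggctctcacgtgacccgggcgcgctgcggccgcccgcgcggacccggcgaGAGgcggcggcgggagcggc

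In BCL2L11, PMAIP1 and BAD the called base was a C followed by an A, the CA step at which RNA polymerase II often initiates. BID had a T before a called A, and BAX an A between G bases. Over all 7403 sense calls that lie in a listed promoter window, 37.6% had CA at the called and the next base and 1.32% had it at the preceding and the called base. C followed by A or G made up 47.7% of steps at the called and next base, while T followed by A or G was found there in 3 calls. At the preceding and called base the order was turned: T followed by A or G made up 29% and C followed by A or G 1.45%. At such steps the deposited position thus mostly lay on the pyrimidine of C-type steps and on the purine of T-type steps, and differences of 1 bp between a call and an annotated start are not read as differences here. Positions are printed as deposited.

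Among the pro-survival genes, MCL1, which encodes a short-lived protein of the outer mitochondrial membrane, had its start at position 150579611 of chromosome 1, on the reverse strand. This is 1 base outside the gene (150574558 to 150579610). A forward call at 150579855 lay 244 bp upstream and ran away from MCL1, in the divergent arrangement that is common at promoters. It lay 25 bp inside the end of the long noncoding gene LOC107985203, so that it counted both as the partner of MCL1 and as a start of that gene. No call lay inside MCL1. The remaining calls of its window, at 150561109 and 150561475, were 172 and 538 bp from an end of ADAMTSL4. Both lay inside another annotated gene, ADAMTSL4-AS1.

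BCL2L1 (chromosome 20, 31664452 to 31723963) had its start at 31723498 on the reverse strand, 465 bp inside the outer end. This was the deepest of the 8 member starts and close to the 500 bp limit. The table lists 2 starts for BCL2L1, and the call lay 465 bp after the upper and 630 bp before the lower of them, at neither. Over protein-coding genes 1.39% of called starts lay more than 400 bp inside. There was no opposite call within 300 bp upstream, and the nearest antisense call, at 31722663, lay 835 bp further into the gene.

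BCL2, the founding member of the family and the largest gene of the 10 at 196745 bp (chromosome 18, 63123346 to 63320090), had no called start and no call inside. Of the 3350 protein-coding genes of at least 100 kb, 47.9% held a call inside and 52.1% held none. The 3 calls in its window all lay just upstream. Forward calls at 63320207 and 63320479, 117 and 389 bp outside the gene, ran away from it. A reverse call at 63320810, 720 bp outside, ran toward it. That sense call lay 1041 bp before the start that the promoter table lists for BCL2, and 331 bp from the nearer forward call, which it faced. Among genes of listed strand without a called start, 5.43% had an antisense call within 500 bp upstream. With a window of 1000 bp the sense call counted as a start, and 3 of 3 pro-survival genes were called. With 200 bp only MCL1 was.

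The effector BAX, which forms pores in the outer membrane, had its start at 48954906 of chromosome 19 on the forward strand, 31 bp inside the gene (48954875 to 48961798). Its partner was a reverse call at 48954712, 194 bp upstream. BAK1, the second effector (chromosome 6, 33572552 to 33580276), started at 33580211 on the reverse strand, 65 bp inside, with no partner and no antisense call anywhere in its window. Its other call, at 33571322, lay 1230 bp beyond the 3' end on the same strand.

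Of the BH3-only genes, BCL2L11, which encodes BIM, and PMAIP1, which encodes NOXA, a partner of MCL1, had starts 1 base outside their outer ends. The call of BCL2L11 lay at 111120913 of chromosome 2 (gene 111120914 to 111168445) and that of PMAIP1 at 59899995 of chromosome 18 (gene 59899996 to 59904305), both forward. BCL2L11 had 2 reverse calls upstream, at 111120757 and 111120491, the nearer one 156 bp from the start. PMAIP1 had a reverse call at 59899848, 147 bp from its start, and nothing else in its window. Its nearest annotated neighbour ends 27.4 kb from the start.

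BAD, whose protein is kept inactive by survival signalling through phosphorylation, started at 64284666 of chromosome 11 on the reverse strand. This was 38 bp inside the outer end (gene 64269828 to 64284704) and 1 base before a second listed start. The forward partner at 64284866 lay 200 bp upstream. BID, which caspase-8 cleaves to link death receptors to mitochondria, started at 17774469 of chromosome 22 (gene 17734138 to 17774665), 196 bp inside the outer end. That base is one of 5 starts listed for BID. Measured from the nearest listed start, 4 of the 7 called genes in the promoter table were within 1 bp: BCL2L11, PMAIP1, BAD and BID. Over all called protein-coding genes in that table the share was 30.8%. Genes with several listed starts, such as BAD and BID, have more chances of such a match.

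**Figure D2:**
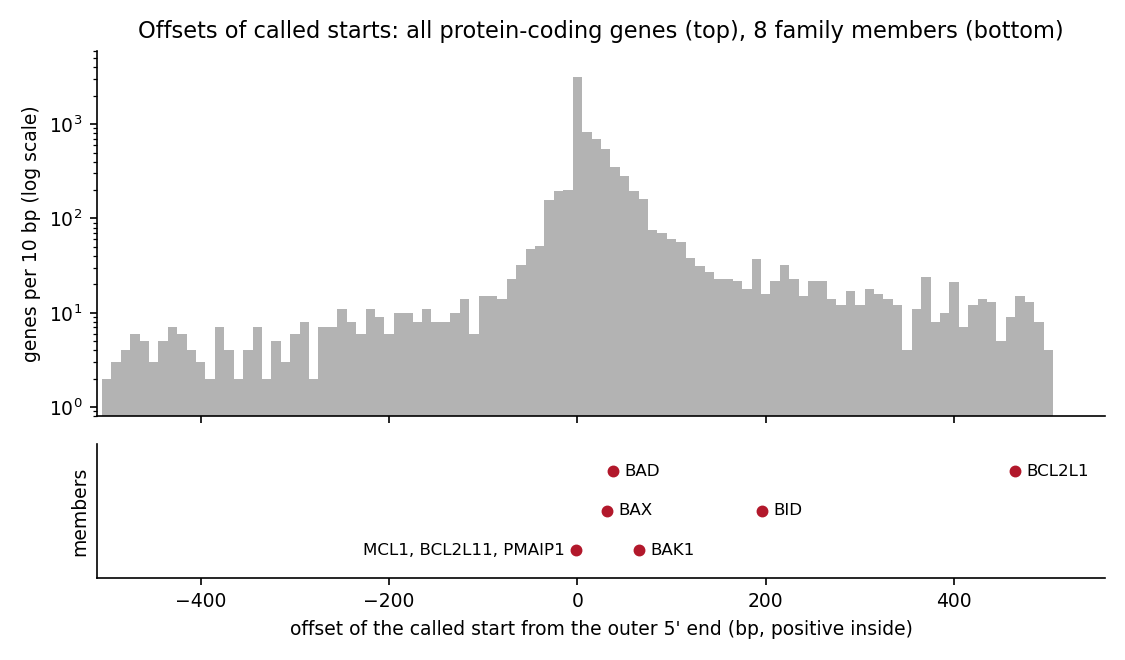
Offsets of called starts from the outer 5' end (horizontal axis, bp, positive inside the gene). The upper panel counts all 8112 protein-coding genes with a called start per 10 bp on a log axis, and the lower panel marks the 8 family members as points, spread vertically for legibility. MCL1, BCL2L11 and PMAIP1 sit at the peak, and BCL2L1 at 465 bp lies in the sparse right tail.

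Over all called protein-coding genes the offset had a median of 4 bp inside, with quartiles at -1 and 32 bp, and 17.1% of starts lay exactly 1 base outside. MCL1, BCL2L11 and PMAIP1 were in this group. BAX was close to the upper quartile. BAD and BAK1 lay somewhat deeper, within the 87.7% of starts that lie within 100 bp of the end. BID and BCL2L1 were among the 6.89% that lie more than 150 bp inside.

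A divergent partner, defined as an opposite call 0 to 300 bp upstream, was present at 5 of the 8 member starts, and at 50.8% of called starts of all protein-coding genes. MCL1, BAX, BCL2L11, BAD and PMAIP1 had one, at 147 to 244 bp. The median over all genes was 153 bp, with quartiles at 110 and 210 bp. BCL2L1, BAK1 and BID had none within 500 bp either. By side, 1 of 2 called pro-survival genes and 4 of 6 called pro-death genes had a partner. With a limit of 150 bp only PMAIP1 kept its partner.

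Antisense calls also lay inside genes, near the 5' end. In BCL2L1, BID, BCL2L11 and BBC3 a call on the opposite strand lay 1300, 841, 1517 and 1409 bp inside the outer 5' end. This was 4 of the 9 genes with listed strand, against 9.5% of all such genes over 2 kb. Among genes with a called start, which leaves out BBC3, it was 3 of 7, against 15.2%. The range of 500 to 2000 bp was chosen after the member values were seen, so that the difference is a description. Upstream antisense calls within 500 bp were present in 5 of the 9 (BCL2, BCL2L11, BAX, BAD and PMAIP1), against 29.6% of genes with listed strand.

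Divergent pairs inside the gene, with both calls more than 1000 bp from both of its ends, occurred in 2 of the 10 genes, 1 pro-survival and 1 pro-death, and in 4.35% of all protein-coding genes. Such pairs need room, and among genes of at least 10 kb, of which the family has 6, the share was 5.6%. The tables used here hold no exons, so that the pairs are inside the gene but are not assigned to an intron.

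The pair of BCL2L1 consisted of a reverse call at 31675899 and a forward call at 31676066, 167 bp apart and 48.1 and 47.9 kb from the 5' end, toward the 3' end of the gene. The reverse call runs with BCL2L1 and the forward call against it. Both also lie inside the antisense gene BCL2L1-AS1, 791 and 958 bp from one of its ends. When calls near the end of any gene were left out, this pair was lost and that of BBC3 remained. Whether the pair starts the antisense RNA was not tested.

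BBC3 encodes PUMA, a strong p53-induced killer protein. The gene (chromosome 19, 47220824 to 47232860) had no call at its outer 5' end or at its listed start, but held 4 calls inside. A reverse call at 47231199, running with the gene, and a forward call at 47231451 formed a divergent pair 252 bp apart. The sense call lay 1661 bp from the outer 5' end and 1468 bp after the listed start, in the place and direction of a start further into the gene. Forward calls at 47227267 and 47226273 lay 5593 and 6587 bp inside, 246 and 669 bp from an end of the microRNA gene MIR3190, which lies within BBC3. When pairs had to be 2000 bp from the ends, BBC3 was lost and BCL2L1 remained. Of the 11709 protein-coding genes without a called start, 4.02% held a divergent pair inside.

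**Figure D3:**
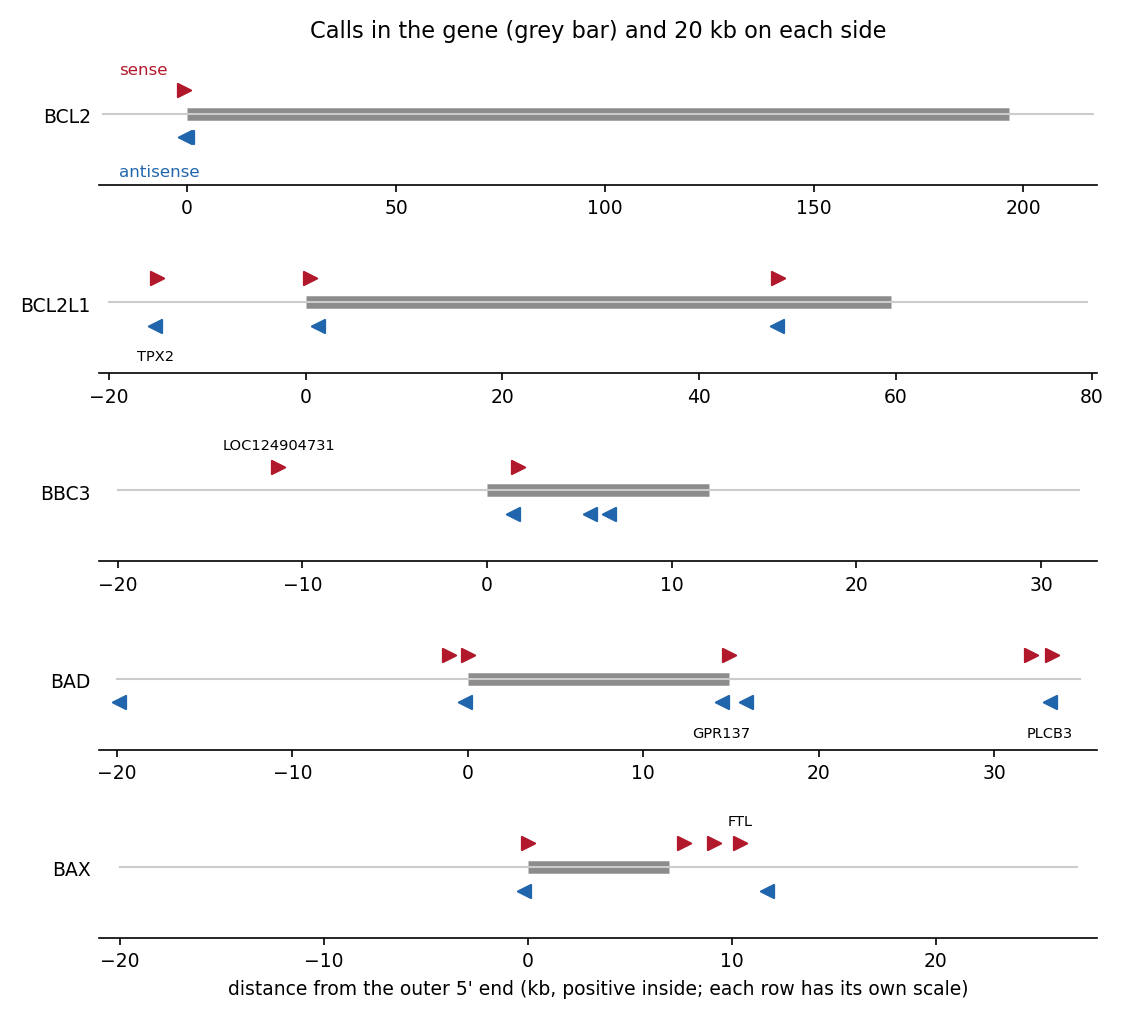
All calls in BCL2, BCL2L1, BBC3, BAD and BAX and 20 kb on each side. The horizontal axis is the distance from the outer 5' end in kb with a separate scale per row, the grey bar is the gene, sense calls are red above it and antisense calls blue below, and names mark calls that start another annotated gene. BCL2 holds no call inside, BCL2L1 has a pair 47.9 to 48.1 kb in, and BAD has calls near both of its ends and others further out, among them the start of PLCB3.

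The 44 calls were accounted for as follows. Member starts made up 8 and their partners 5. A further 5 were starts of other annotated genes and 2 were partners of those. There were 9 other calls inside members and 15 other calls outside. The number per gene ran from 2 in BAK1, BID and PMAIP1 to 10 in BAD, with a median of 4, where all protein-coding genes had a median of 2 and an upper quartile of 4. Of the 15 calls inside the genes 7 were sense and 8 antisense.

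Some of the calls around BAD and BAX belonged to neighbouring genes, and others matched no annotated start. GPR137 overlaps BAD on the opposite strand and started at 64270238, 293 bp outside its own end and near the 3' end of BAD. A reverse call at 64269824 lay 414 bp from it and 4 bp beyond the end of BAD. PLCB3, a phospholipase gene, had a start at 64251514 with a partner 116 bp away. A reverse call at 64285744, 1040 bp upstream of BAD and on its strand, matched no annotated start within 500 bp. FTL, which encodes the ferritin light chain, started at 48965306, 3508 bp beyond the 3' end of BAX and on the same strand. The calls at 48962554 and 48964001, 756 and 2203 bp beyond BAX, lay between both genes and matched no annotated start. Upstream of BCL2L1, TPX2, a spindle assembly gene, started at 31739280 with a partner 171 bp away, 15.3 kb from the end of BCL2L1. LOC124904731, a long noncoding gene, started at 47244157, 11.3 kb upstream of BBC3.

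The promoter windows of the family, from 250 bases before to 50 after a listed start, were searched for 10 motifs on both strands. The table held 15 windows for 9 of the genes, and windows of BAD and of BID overlap one another. The windows follow listed starts, and no sense call of BCL2, BCL2L1, BAK1 or BBC3 fell in a window of its gene. GGGCGG, the GC box of SP and KLF factors, was found in 7 of the 9 genes (45% of all 34961 windows), CACCC in 6 (59.9%) and CCAAT in 5 (34.6%). CACGTG, the E-box that MYC with MAX and the USF factors recognise, was in BAX, BBC3 and BID (7.27%), GATAA, the core of GATA factor sites, in BAX and BID (22.7%), TATAAA in BCL2L1 (11.5%), CCGGAA in BCL2L1 (17.3%) and the palindrome of NRF1 in BID (8.34%). TTCNNNGAA, the spacing of STAT5 sites, was in none (7.66%), and neither was an exact p53 response element, which 6 of all windows held. Genes with several windows had more chances of a match than single windows. A match is a description of letters, and no match says only that these letters are not in the window.

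BAX stood out by the number of E-boxes. Its window held 4 copies of CACGTG, starting 138, 93, 45 and 14 bases before the listed start, and 5 of all 34961 windows (0.0143%) held as many. It was singled out after the counts were seen. The 250 bases before the listed start are shown with the 4 copies in capitals.
BAX, chr19:48954625-48954874, plus strand: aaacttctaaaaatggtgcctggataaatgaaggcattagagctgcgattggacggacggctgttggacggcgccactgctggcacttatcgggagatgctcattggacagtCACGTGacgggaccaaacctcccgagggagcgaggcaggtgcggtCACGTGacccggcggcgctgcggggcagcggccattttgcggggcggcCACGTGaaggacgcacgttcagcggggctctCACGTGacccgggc

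Parts of the windows of BCL2 and BBC3 are shown because these genes had no called start, with the listed start in capitals and 90 bases before it.
BCL2, chr18:63319749-63319859, minus strand: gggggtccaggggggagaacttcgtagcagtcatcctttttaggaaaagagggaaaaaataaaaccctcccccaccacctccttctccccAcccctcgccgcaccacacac
BBC3, chr19:47232647-47232757, minus strand: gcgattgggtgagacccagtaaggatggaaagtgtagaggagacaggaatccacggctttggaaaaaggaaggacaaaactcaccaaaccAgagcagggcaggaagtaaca
The compositions given next are those of the whole windows of 300 bases and not of the printed stretches. The BCL2 window was GC-rich (70.7% G and C, with CpG at 0.83 of the number expected from its base composition), like that of PMAIP1 (71.3% and 1.11), in which a call fell. The BBC3 window was not (48% and 0.31). It surrounds the listed start, and the sense call of BBC3 lay 1468 bp further in, where the composition was not measured. The window of BAK1 was also low in CpG (0.28), and the called start of BAK1 lay just past it, so that no call fell in it either. Over all windows the median was 58.7% G and C, and CpG was at 0.58 of the expected number.

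The rest of the pathway was taken as 3 further lists of 43 genes in all. In the wider BCL2 family 2 of 11 genes had a called start (18.2%, Wilson 5.14 to 47.7, an interval that includes the 40.9% of all protein-coding genes). They were BIK, a BH3-only gene, and BCL2L13, whose gene also held a divergent pair inside. Among the 9 without were the pro-survival genes BCL2A1 and BCL2L10, and BCL2L12 and BCL2L14. Of these 9, 2 held a call inside or within 500 bp, BCL2L12 among them with 2 calls, against 19.8% of all protein-coding genes without a called start.

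Of the genes that act after the membrane opens and of their inhibitors 8 of 16 had a start. APAF1, the scaffold of the apoptosome, started 1 base outside its gene, and AIFM1, BIRC2 and BIRC5, which encodes survivin, were also called. CASP9, the caspase that APAF1 activates, had none at its outer end, nor had BIRC3 or CASP6. Of the 8 without, 6 held a call inside or within 500 bp, among them CASP9 and CASP6 with 1 each, against the same 19.8%.

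A list of 16 regulators of the family, chosen with earlier results of these data known, had 16 of 16 called, against 40.9% of all protein-coding genes. GATA1 and EPOR are also among the 9 erythroid markers above. DDIT3, the stress factor CHOP, started 5 bp inside its gene, E2F1, a cell cycle factor that activates BH3-only genes, 3 bp inside, and FBXW7, which marks MCL1 for degradation, 8 bp inside. EPOR, the erythropoietin receptor, started 7 bp outside with a partner at 116 bp. Over the lists 26 of 43 genes (60.5%, Wilson 45.6 to 73.6) had a start, against 40.9%. The regulators made up 16 of these 26, and the other lists had 2 of 11 and 8 of 16. Counted from any listed start, the share over the lists was 72.1%, against 44.2% of all protein-coding genes. That alternative was chosen after the data were seen. All lists were chosen with earlier results known, so that the interval does not test the pathway against all genes.

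**Figure D4:**
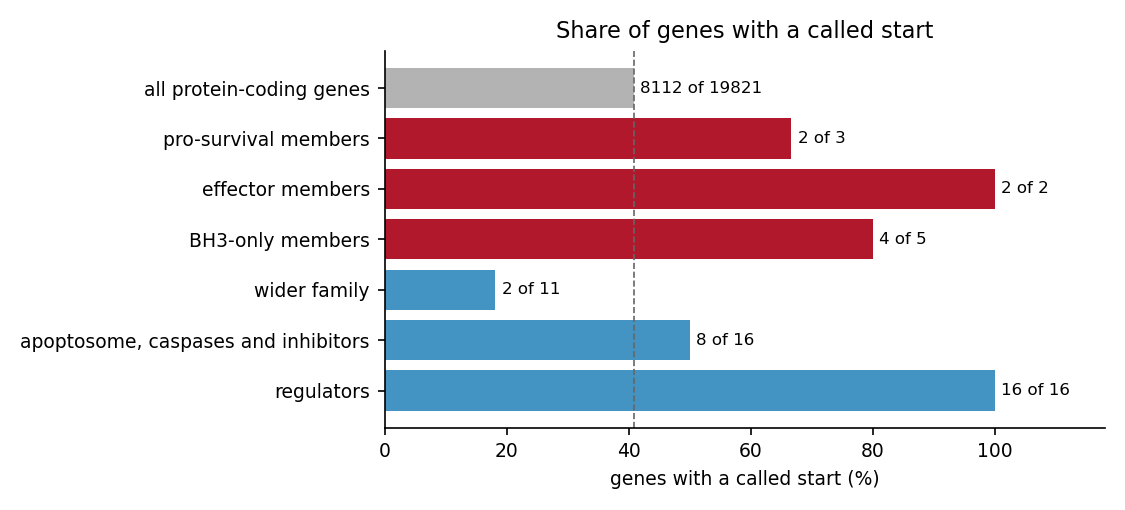
Percent of genes with a called start (horizontal axis) for all protein-coding genes (grey, also the dashed line at 40.9%), the 3 classes of family members (red) and the 3 further lists (blue). The counts are printed at the bars. The counts run from 2 of 11 in the wider family to 16 of 16 in the regulators.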

How the data were processed

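PRO-cap libraries of wild-type HUDEP-2 cells came from 2 biological replicates, per the labels. Tools named in the submitters' processing notes are BWA 0.7.16a, SAMtools 1.17, deepTools 3.5.4 and Picard, with the build hg38. How starts were called and replicates combined is not given in the sources used here. For each strand the authors deposited 1-base positions, which are coordinates and other values than measurements, and a score that is 0 for all 26395 deposited calls. Of these, 63 outside chromosomes 1 to 22 and X were left out.

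Gene ends came from a RefSeq table (GRCh38.p14), without 679 entries on other scaffolds, and strand and promoter sequence from a RefSeq promoter table that covers 79.8% of protein-coding genes. Calls were matched with Python 3.11.15 and pandas 2.3.3. The steps were tested on simulated data. Members and lists were chosen with earlier results of these data known. All 10 members were named. Of other lists, all genes on a side were named where these were 5 or fewer, otherwise the first 4 by alphabet, and also every gene started in a member's flanks. An item that this rule names is not reported here. Alternatives were windows of 200 and 1000 bp, no strand, any call, listed starts, flanks of 0, 10 and 50 kb, partner limits of 150 and 500 bp and other limits for pairs inside.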

Additional observations from a re-analysis of the deposited data

How the results depend on the processing

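The number of members with a called start ran from 7 to 10 of 10 over all alternatives, and that of pro-death members was 6 of 7 except when any call counted. Pro-survival members fell from 2 to 1 with a 200 bp window, which leaves out BCL2L1. The share of all protein-coding genes was 37.9% with 200 bp, 43.4% with 1000 bp, 52.6% with any call and 44.2% with any listed start, an alternative chosen after seeing the data, against 40.9%. The share of the 3 further lists was 53.5% with 200 bp, 67.4% with 1000 bp, 72.1% with any listed start and 79.1% with any call, against 60.5%. Calls in member windows numbered 77 with flanks of 50 kb and 15 in the gene bodies alone, against 44. With a 150 bp limit 1 member had a partner and 0 had a pair inside. Pairs inside were found in 1 member with a 2000 bp distance from the ends (BCL2L1), and in 1 member when calls within 1000 bp of any gene end were left out (BBC3). Other alternatives kept these counts within 1.5 times. No paired analysis was possible because the deposited calls hold no value per replicate, and no replicate could be left out. With no depth, the lack of a call cannot be told apart from a signal below the threshold.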

Other observations

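The base composition at calls differed between calls 1 base before a listed start and calls on it. Of the 1538 calls 1 base before the nearest listed start, 79.1% had CA at the called and the next base. Of the 888 calls on a listed start, 1.24% did. Forward and reverse calls had nearly the same share of CA at this place over all listed windows, 37.6% and 37.7%. BCL2L11, PMAIP1 and BAD are of the former kind and BID is of the latter. The cause was not tested.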
